A study of Mus musculus with 18 samples.

Results

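In 18 libraries of mouse oocytes, 10 genes of the actin cytoskeleton were followed. They were chosen by gene symbol in the deposited table, out of 53715 genes counted. Actb and Actg1 encode the cytoplasmic beta and gamma actins, Fmn2, Spire1 and Spire2 encode actin nucleators of the oocyte, Cfl1, Pfn1, Tmsb4x and Tmsb10 encode proteins that bind actin monomers or take filaments apart, and Ahnak encodes a very large scaffold protein beneath the plasma membrane. All 10 passed edgeR's usual filter on low counts with the libraries fitted as a set, while a stricter filter, or a fit of the compared groups alone, left 5 to 8 of them in some comparisons.

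The oocytes came from primordial follicles, from primary follicles, or from the metaphase II arrest that precedes fertilization (MII). Each stage had a sham group and a group labelled NTY, a name that the labels do not explain, with 3 libraries per group and 6 groups in all. All groups came from mice of the cross C57Bl/6j x CBA/J and were sampled in vivo, and no age is given in the labels. The labelled protocol describes laser-cut oocytes, whose RNA was pooled by stage, amplified with the Ovation PICO system and captured for coding sequence, and collected oocytes, which went into Smart-seq II libraries. From this protocol the 12 primordial and primary libraries were read as laser-cut, here called microdissected, and the 6 MII libraries as collected. Any difference between these sets is thus one of stage and of library method at once, and these cannot be told apart. Nothing in the labels says that the 3 libraries of a group came from separate animals, and p-values measure only the spread between these libraries.

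Actin filaments grow from monomers held in a pool. Profilin charges monomers and passes them to formins such as Fmn2, thymosins hold monomers back, and cofilin cuts old filaments. In the fully grown mouse oocyte, Fmn2 and the Spire proteins together build the cytoplasmic actin mesh that moves the spindle to the cortex before the polar body is extruded.

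The gene pairs compared below are close in sequence, which matters for how reads are assigned, so the stretches that separate them are shown first. Capitals mark the bases at which the members of a pair differ. The coding sequences of Actb and Actg1 (GENCODE M21, GRCm38) are both 1128 bases long and differ at 128 bases, an identity of 88.7%, and 9 of these bases lie in the opening 60 bases:
Actb: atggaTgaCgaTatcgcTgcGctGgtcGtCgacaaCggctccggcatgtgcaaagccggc
Actg1: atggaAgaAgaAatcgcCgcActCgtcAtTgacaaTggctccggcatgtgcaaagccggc
The longest run that the 2 coding sequences share is 62 bases. Of the 1821 windows of 100 bases in the Actb mRNA none occurs without a mismatch in the Actg1 mRNA, whereas 30 of the 1871 windows of 50 bases do. The processed pseudogene Actg-ps1 held at most 14 counts in a microdissected library and 0 in the MII libraries. The thymosins are further apart. Over their whole coding sequences of 135 bases, Tmsb4x and Tmsb10 differ at 40 bases, an identity of 70.4%:
Tmsb4x: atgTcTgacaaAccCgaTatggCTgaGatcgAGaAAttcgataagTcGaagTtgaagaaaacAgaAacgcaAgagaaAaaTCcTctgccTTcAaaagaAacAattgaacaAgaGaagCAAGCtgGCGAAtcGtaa
Tmsb10: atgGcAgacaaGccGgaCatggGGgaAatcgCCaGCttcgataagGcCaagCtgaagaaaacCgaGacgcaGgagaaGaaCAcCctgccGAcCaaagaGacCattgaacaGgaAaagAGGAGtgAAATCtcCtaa
Their longest shared run is 10 bases, and no window of 50 bases is shared.

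On GRCm38, Actb (ENSMUSG00000029580) lies at chr5:142903115-142906754 on the minus strand and Actg1 (ENSMUSG00000062825) at chr11:120345690-120348542 on the minus strand. Of the nucleators, Fmn2 (ENSMUSG00000028354) lies at chr1:174501825-174822729 on the plus strand, Spire2 (ENSMUSG00000010154) at chr8:123332713-123369515 on the plus strand, and Spire1 (ENSMUSG00000024533) on chromosome 18. Cfl1 (ENSMUSG00000056201) and Ahnak (ENSMUSG00000069833) share chromosome 19, at chr19:5490455-5495201 and chr19:8989284-9076914 on the plus strand. Pfn1 (ENSMUSG00000018293) lies at chr11:70651850-70654644, Tmsb4x (ENSMUSG00000049775) at chrX:167207093-167209315 and Tmsb10 (ENSMUSG00000079523) at chr6:72957347-72958748, all on the minus strand. All 10 are protein-coding genes, and counts were taken over whole genes.

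The microdissected libraries held 15149564 to 29205503 counts and the MII libraries 8652089 to 9978830. A count of 0 therefore allows up to 3 counts, or 0.103 to 0.198 CPM (counts scaled to 1000000 per library) in a microdissected library and 0.301 to 0.347 CPM in an MII library, for counting error only. Markers of oocytes were detected in all groups, but the microdissected libraries also held markers of granulosa cells (a summed 758 to 5050 CPM over 12 genes) and of stroma (1469 to 18393 CPM over 8 genes) beside 614 to 3492 CPM over 15 oocyte genes. Within a microdissected group many genes came and went between libraries. Genes that reached 1000 counts in 1 library were at 3 counts or fewer in another of the same group in 14.3% to 41.2% of cases, against 0% and 0.0434% in the MII groups. Among the 10 genes this held for Fmn2 in the primordial sham group and for Tmsb10 in the primary NTY group. In primordial NTY replicate 3, 6 of 15 oocyte markers had more than 3 counts, against 11 to 15 in the other microdissected libraries, although their summed level of 3492 CPM was the highest of the 12. Its 6524 genes detected were the fewest but for the 6147 of primordial sham replicate 1. Primary NTY replicates 2 and 3 carry library codes that may name the same material, and they were treated as separate. Fitted changes of Ahnak and Actb that rest on primordial NTY replicate 3 are given with and without that library.

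Actb was among the most abundant transcripts of the microdissected libraries. Its level is given in TPM, transcripts scaled to 1000000 per library and by a gene length that the sources do not state. The level of Actb was 18691, 17773 and 32791 in the primordial sham libraries and 18951, 15730 and 61329 in the primordial NTY libraries. In the primary follicles it was 20748, 22159 and 20251 TPM in the sham libraries and 36518, 17680 and 22466 in the NTY libraries. It ranked between place 1 and place 5 of all genes by TPM in each of these 12 libraries. The highest value was that of primordial NTY replicate 3. In the MII oocytes Actb stood at 22.1, 30.7 and 27.0 TPM in the sham libraries and at 24.5, 24.9 and 17.8 in the NTY libraries, between places 3579 and 4342. Thus no MII library reached the level of any microdissected library.

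Actg1 followed at a lower level. It was measured at 1031, 4190 and 4244 TPM in the primordial sham libraries and at 2455, 4955 and 1451 in the primordial NTY libraries. The primary sham libraries held 3312, 5180 and 3124 TPM and the primary NTY libraries 4881, 14634 and 3139. The value of 14634 TPM, in primary NTY replicate 2, stood far above the rest, while the other 11 libraries lay between 1031 and 5180 TPM. In MII oocytes Actg1 was at 5.52, 19.2 and 12.6 TPM in the sham libraries and at 5.83, 7.04 and 8.43 in the NTY libraries. Together the 2 actin genes took 1.64% to 4.91% of all counts in a microdissected library (median 2.16%) and 0.00275% to 0.00471% in an MII library.

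**Figure D1:**
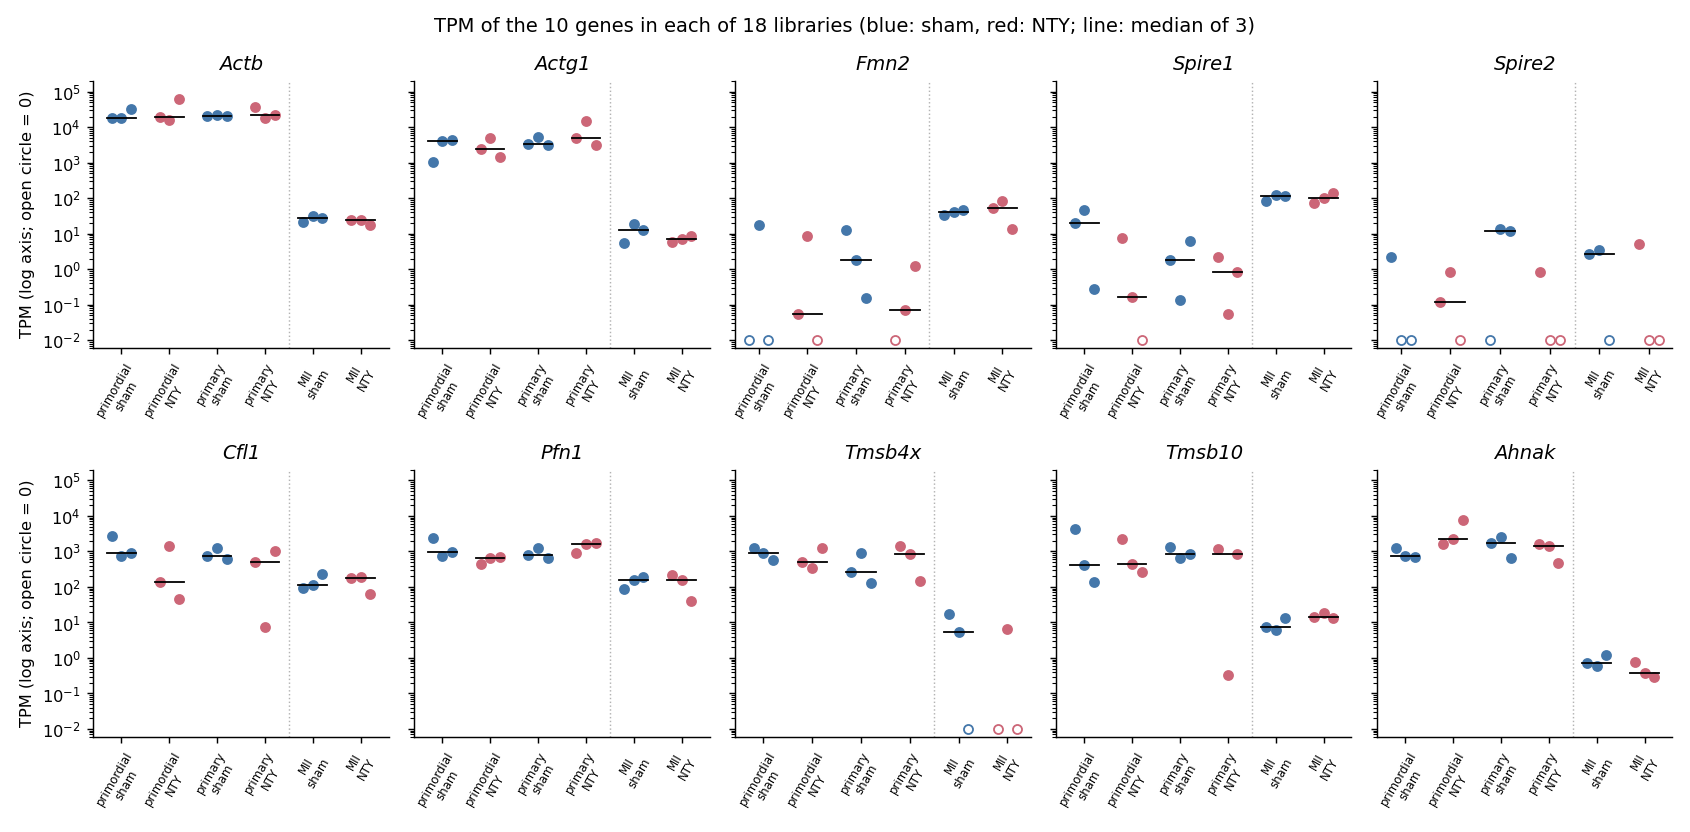
TPM of the 10 genes (log axis) in each of the 18 libraries, by group; filled points are single libraries, open circles at the bottom are libraries at 0, and the black line is the median of 3. Actb and Ahnak did not fall below 15730 and 469 TPM in the microdissected libraries nor exceed 30.7 and 1.21 TPM in the MII libraries, whereas Fmn2 and Spire1 scattered between 0 and 45.2 TPM in the microdissected libraries and lay between 13.9 and 138 TPM in the MII libraries.

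The nucleators showed another picture. Fmn2, the formin that extends the oocyte's actin mesh, had 0, 1217 and 0 counts in the primordial sham libraries and 3, 490 and 0 in the primordial NTY libraries. It had 712, 113 and 10 counts in the primary sham libraries and 0, 4 and 78 in the primary NTY libraries. Fmn2 was thus either clearly present or at the limit of detection within 1 and the same group, and 5 of the 12 libraries held 3 counts or fewer. In MII oocytes every library held it, with 1102, 1179 and 1175 counts in the sham group and 1406, 2265 and 376 in the NTY group, which correspond to 32.8, 42.1 and 45.3 TPM and to 51.7, 81.9 and 13.9 TPM. The lowest MII level, 13.9 TPM, lay below the highest microdissected level of 17.95 TPM in primordial sham replicate 2.

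Spire1, which nucleates filaments on vesicles and cooperates with Fmn2, had 721, 2991 and 14 counts in the primordial sham libraries and 384, 9 and 0 in the primordial NTY libraries. In the primary follicles it had 95, 8 and 392 counts in the sham libraries and 138, 3 and 52 in the NTY libraries. The primordial sham group alone ran from 0.280 to 45.2 TPM, nearly the whole range of 0 to 45.2 TPM over the microdissected libraries. In MII oocytes Spire1 was at 86.2, 122 and 113 TPM in the sham libraries and at 71.3, 104 and 138 TPM in the NTY libraries, above the 45.2 TPM of the highest microdissected library. In CPM after TMM scaling it overlapped. Spire2, its paralogue, was scarce everywhere. It had 26, 0 and 0 counts in primordial sham, 2, 15 and 0 in primordial NTY, 0, 256 and 249 in primary sham and 17, 0 and 0 in primary NTY libraries. In MII oocytes it had 29, 31 and 0 counts in the sham and 45, 0 and 0 in the NTY libraries. Fmn2 and Spire1 together took 0% to 0.0144% of the counts in a microdissected library and 0.0378% to 0.0543% in an MII library.

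Among the monomer-binding genes, Cfl1, which encodes the filament-severing cofilin 1, was at 2769, 721 and 908 TPM in the primordial sham libraries and at 140, 1410 and 47.0 in the primordial NTY libraries. In the primary follicles it was at 746, 1231 and 600 TPM in the sham libraries and at 488, 7.31 and 999 in the NTY libraries. Primordial NTY replicate 3 and primary NTY replicate 2 were the low ones. In MII oocytes Cfl1 was at 93.9, 112 and 232 TPM in the sham libraries and at 176, 190 and 61.7 in the NTY libraries, so that both of those microdissected libraries fell below every MII library. Pfn1, which encodes profilin 1, was steadier, with 430 to 2362 TPM over the microdissected libraries (median 858). It was at 86.6, 154 and 188 TPM in the MII sham libraries and at 223, 155 and 39.7 in the MII NTY libraries, all below the lowest microdissected value.

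The beta-thymosins, small peptides that hold single actin monomers, differed in how evenly they were detected. Tmsb4x lay between 130 and 1390 TPM in the microdissected libraries (median 703). In the MII libraries it was at 17.8, 5.38 and 0 TPM in the sham group and at 0, 6.51 and 0 in the NTY group, which rests on 103, 26, 0, 0, 31 and 0 counts. Tmsb10 ranged from 0.329 TPM, on 3 counts in primary NTY replicate 2, to 4192 TPM in primordial sham replicate 1. The other 11 microdissected libraries held at least 136 TPM. In MII oocytes it was at 7.42, 6.01 and 12.98 TPM in the sham libraries and at 14.2, 18.3 and 13.4 in the NTY libraries.

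Ahnak, the scaffold gene, was at 1264, 724 and 689 TPM in the primordial sham libraries and at 1647, 2290 and 7464 in the primordial NTY libraries. The primary sham libraries held 1768, 2537 and 660 TPM and the primary NTY libraries 1666, 1446 and 469. Primordial NTY replicate 3 alone carried 1091518 counts of Ahnak, 4.04% of its total. In MII oocytes Ahnak was at 0.728, 0.613 and 1.21 TPM in the sham libraries and at 0.757, 0.373 and 0.286 in the NTY libraries, on 18 to 73 counts.

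By median TPM the order in the microdissected libraries was Actb, Actg1, Ahnak, Pfn1, Tmsb10, Cfl1, Tmsb4x, Spire1, Fmn2 and Spire2. How far the capture for coding sequence and the unstated gene lengths shape this order was not tested. Of the 9 neighbouring pairs in this order only Actb over Actg1 and Tmsb4x over Spire1 had ranges that did not meet, each with the upper gene higher in 12 of 12 libraries. The ranges of the other neighbours overlapped. Tmsb10 exceeded Cfl1 in 6 of 12 libraries, and Ahnak exceeded Pfn1 in 7 of 12. In the MII libraries the order of medians was Pfn1 (155 TPM), Cfl1 (144), Spire1 (108), Fmn2 (43.7), Actb (24.7), Tmsb10 (13.2), Actg1 (7.73), Tmsb4x (2.69), Spire2 (1.37) and Ahnak (0.670), and the ranges of all neighbouring pairs overlapped. Spire1 was nevertheless above Fmn2 in 6 of 6 MII libraries, and Actb was above Tmsb10 in 6 of 6.

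MII oocytes and microdissected oocytes were compared with edgeR's quasi-likelihood test over all 18 libraries, with Benjamini-Hochberg adjustment over the 15929 genes tested and a threshold of 0.05. The actins, the monomer-binding genes and Ahnak were lower in MII oocytes, and the nucleators Fmn2 and Spire1 were higher. In all 9 of the 10 genes differed, where 59.5% of all genes did, so that a difference as such does not set these genes apart. The 7 lower genes stand beside 17.2% of all genes called lower, and the 2 higher genes beside 42.3% called higher. Fewer cells of a type and less RNA per cell cannot be told apart in bulk samples.

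Ahnak had the largest negative log2 fold change of the 10, -12.08 ± 0.86 (SE, 6 MII against 12 microdissected libraries, edgeR adjusted p = 5.8e-08). Actb followed with -10.74 ± 0.62 (adjusted p = 8.5e-09) and Actg1 with -9.43 ± 0.74 (adjusted p = 1.9e-07). By the size of the p, Actb ranked at place 2 of all genes tested. The thymosins came next, with -8.12 ± 1.65 for Tmsb4x and -7.02 ± 1.35 for Tmsb10. Pfn1 was lower by a log2 fold change of -3.57 ± 0.64 and Cfl1 by -2.98 ± 0.89. In CPM scaled by TMM factors the MII and microdissected libraries did not overlap for Actb, Actg1, Ahnak, Pfn1 and Tmsb4x, 5 of 10 genes where 3.25% of all genes were lower without overlap, and 0 of 10 were higher without overlap where 20.7% of all genes were. In plain CPM the same 5 were lower (2.5% of all genes), and Fmn2 and Spire1 were higher without overlap (23.9% of all genes).

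Spire1 was higher in MII oocytes by a log2 fold change of 4.37 ± 1.19 (adjusted p = 0.0042) and Fmn2 by 3.69 ± 1.53 (adjusted p = 0.046), while Spire2, at 0.57 ± 1.56, did not pass the test (adjusted p = 0.80, edgeR). On this scale the median gene was itself higher by 1.64, and the scaling decides that shift, which was 3.09 with RLE size factors and 2.49 with plain library totals. Relative to the median gene, Spire1 was higher by 2.72, 2.83 and 2.70 under the 3 scalings and Fmn2 by 2.04, 2.32 and 2.01, whereas Actb was lower at -12.39, -12.72 and -12.20. The log2 fold changes of Fmn2 and Spire1 lay at percentiles 61.4 and 65.2 of all genes. The call of Fmn2 was narrow. When any of 14 of the 18 libraries was left out its adjusted p rose to between 0.0517 and 0.0889. It kept its call without primordial sham replicate 2, primordial NTY replicate 2, primary sham replicate 1 or primary NTY replicate 3, and without the first of these its log2 fold change was 6.51. With primary NTY replicates 2 and 3 summed, the adjusted p was 0.056. Cfl1 lost its call in 5 of 9 alternatives that kept all libraries or summed 2, with log2 fold changes of -1.70 to -1.31, and kept it in 4. Among the 5 were RLE size factors (log2 fold change -1.50, adjusted p = 0.12), DESeq2 (adjusted p = 0.066) and limma on TPM (adjusted p = 0.13).

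**Figure D2:**
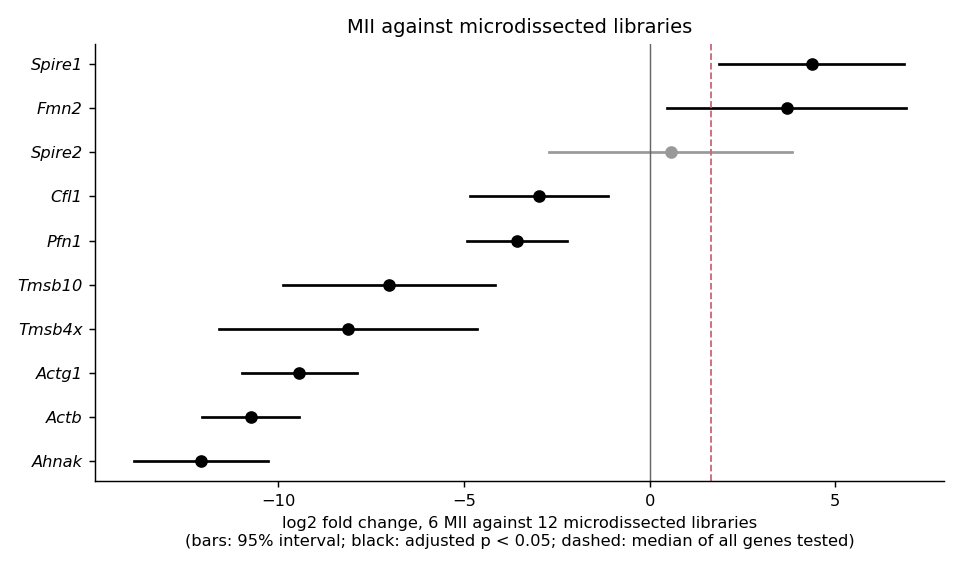
Fitted log2 fold change (x axis) of each of the 10 genes (rows), 6 MII against 12 microdissected libraries, with 95% intervals; black marks an adjusted p under 0.05 and the dashed line the median of all genes tested, 1.64. Ahnak, Actb and Actg1 sit at -12.08, -10.74 and -9.43, and Fmn2, Spire1 and Spire2 to the right of 0.

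Markers of granulosa cells and stroma were also lower in MII oocytes, with 8 of 12 and 8 of 8 called lower and 1 granulosa marker, Fshr, called higher. The granulosa markers summed to 758 to 5050 CPM in the microdissected libraries and to 9.78 to 22.8 CPM in the MII libraries. Foxl2, Fst, Amhr2, Wt1 and Nr5a1 were at 0 in all MII libraries, while the other 7 of the 12 had a count in at least 1. The 8 stroma markers summed to 1469 to 18393 CPM and to 0 to 3.71 CPM, with Lum, Col1a2, Col3a1 and Tcf21 at 0 in all MII libraries. The 15 oocyte markers summed to 614 to 3492 CPM in the microdissected and to 8012 to 11683 CPM in the MII libraries, with 6 of 15 called higher and 2 lower and a median log2 fold change of 1.62 beside 1.64 for all genes. The other lists did not share 1 direction. Of the endothelium markers 2 of 4 tested were higher and 0 lower (summed medians 4.16 and 141 CPM), of the immune markers 1 of 2 was higher, of the smooth muscle markers 1 of 4 was higher and 1 lower, and of the surface epithelium markers 0 of 3 passed. The part of these markers and of the library method in the result was not tested. Over all 18 libraries the gene whose log2(CPM + 1) was most like that of Actb was Col1a2, a fibrillar collagen (Pearson r = 0.996 over 18 libraries and 8225 genes), and for Ahnak it was Eef1a1, an elongation factor (r = 0.989), with Actb next (r = 0.987). For Fmn2 it was Lztfl1 (r = 0.952) and for Spire1 it was Tada1 (r = 0.945). These 18 points form 2 sets that differ in library method and depth, and the correlations describe mainly the step between the sets.

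Within the 12 microdissected libraries the 10 genes did not move as a unit. The 45 pairs of genes had correlations of log2(CPM + 1) from -0.70 to 0.73 with a median of -0.047, and 3 pairs were above 0.5.

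NTY and sham oocytes were compared within each stage, the comparison that the design names. None of the 10 genes differed at any stage at an adjusted p under 0.05 with edgeR, which called 0.0095% of all genes in primordial, 0% in primary and 0% in MII oocytes. DESeq2 also called 0 of 10, where it called 7.22%, 4.61% and 0.238% of all genes. Limma on TPM, which tested 9 of the 10 in MII oocytes, called 0 of them and 0.0107%, 0.0321% and 0% of all genes. At an unadjusted p under 0.05, 1 of 10 passed in primordial oocytes, which was Ahnak, about the share of all genes (10.9%). In primary (8.15% of all genes) and MII oocytes (2.29%) 0 of 10 passed.

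Ahnak was higher in NTY than in sham primordial oocytes by a log2 fold change of 2.50 ± 0.69 (SE, 3 against 3 libraries, edgeR adjusted p = 0.41), with all 3 NTY libraries above all 3 sham libraries. Of all genes 5.44% were higher without overlap in this comparison in CPM scaled by TMM factors, and 5.19% in plain CPM. Its p ranked at place 9 of 10522 genes. Without primordial NTY replicate 3 the log2 fold change was 0.86 (adjusted p = 0.74). When only the 6 primordial libraries were fitted, Ahnak passed the edgeR test (log2 fold change 2.61, adjusted p = 0.0036), the only such setting. The share of all genes called in that fit is not given here, so the call does not set Ahnak apart. In primordial NTY replicate 3 the stroma markers summed to 14590 CPM and the granulosa markers to 3995 CPM. The primordial sham libraries held 1469 to 9683 and 758 to 3339 CPM. Primordial NTY replicates 1 and 2 held 4963 and 3160 CPM of stroma markers and 1956 and 5050 CPM of granulosa markers. The part of these markers in the result was not tested. In primary oocytes the log2 fold change of Ahnak was -0.05 ± 0.65 (adjusted p = 1.00), and the difference between the stages, primary minus primordial, was -2.54 ± 0.94 (adjusted p = 0.23, edgeR). For that difference 0.0095% of all genes passed the test, and 11.8% passed an unadjusted p of 0.05, where Ahnak was 1 of 10. Without primordial NTY replicate 3 that difference was -0.82.

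Actb differed by a log2 fold change of 0.87 ± 0.53 in primordial oocytes (adjusted p = 0.58, edgeR) and by 0.72 ± 0.53 in primary oocytes (adjusted p = 0.90). No gene of the 10 separated NTY from sham in primary oocytes, where 13.9% of all genes did in CPM scaled by TMM factors and 15.1% in plain CPM. The 95% intervals of Actb, -0.21 to 1.94 and -0.35 to 1.79, still hold changes of a log2 unit and more. Without primordial NTY replicate 3 the primordial value was -0.63. For the nucleators the microdissected libraries could show little. The interval of Fmn2 ran from -7.56 to 4.88 in primordial and from -9.58 to 3.60 in primary oocytes, and that of Spire1 from -9.38 to 3.05 and from -6.61 to 4.91. No difference between NTY and sham was detected for them, and these intervals hold large changes in either direction.

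In MII oocytes the intervals of Fmn2, Spire1, Cfl1 and Pfn1 were narrower than in both follicle stages. Spire1 differed by 0.03 ± 0.32 between NTY and sham MII oocytes, with an interval from -0.70 to 0.76, and Fmn2 by 0.26 ± 0.49, from -0.85 to 1.37 (edgeR, adjusted p = 1.00 for each). Cfl1 and Pfn1 had intervals from -1.05 to 1.00 and from -1.19 to 1.17. Actb, at -0.22 ± 0.40, was lower in all 3 NTY libraries in CPM (25.6, 24.8 and 18.7 against 26.1, 29.1 and 26.5) and overlapped in TPM. Of all genes 5.72% were lower without overlap in CPM scaled by TMM factors and 6% in plain CPM. Tmsb10, at 0.80 ± 0.82, was higher in all 3 NTY libraries, where 2.63% of all genes were in CPM scaled by TMM factors and 2.3% in plain CPM. Neither passed the test (adjusted p = 1.00, edgeR). The MII intervals of Tmsb4x, -7.25 to 2.92, of Spire2, -5.22 to 4.68, and of Ahnak, -2.97 to 1.30, were wide, and those of Tmsb4x and Ahnak were wider than in either follicle stage.

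**Figure D3:**
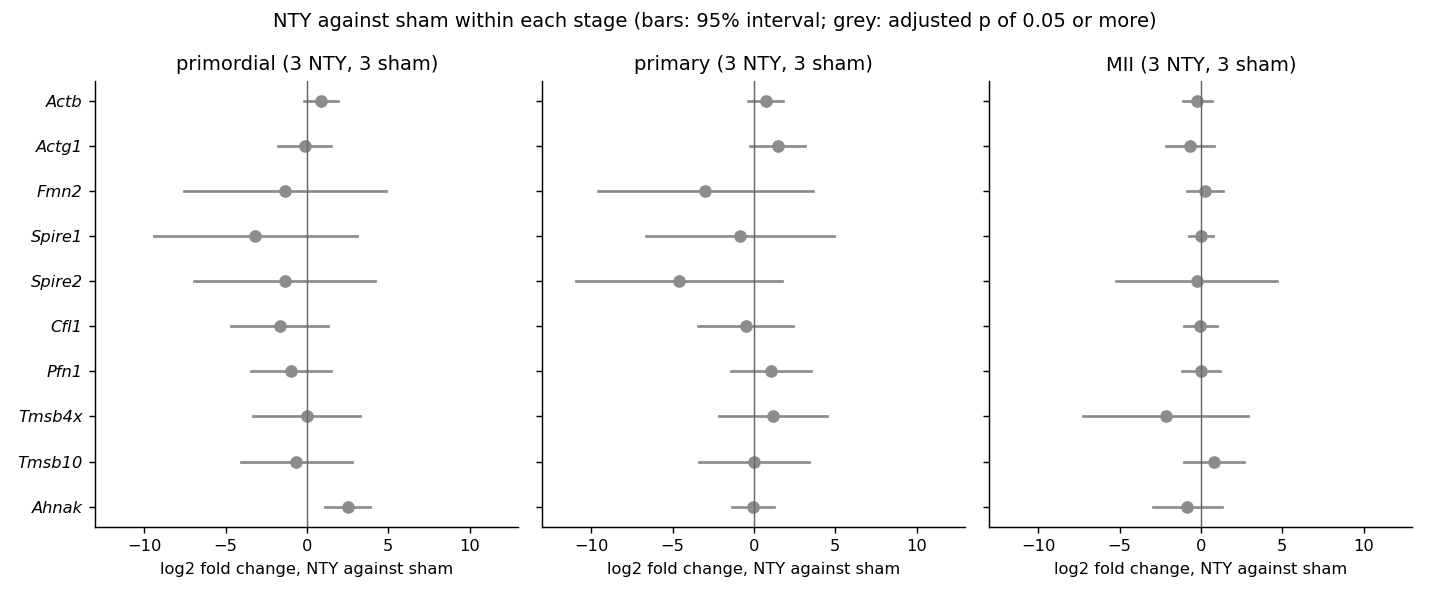
Fitted log2 fold change of NTY against sham (x axis) for the 10 genes (rows) in primordial, primary and MII oocytes (panels, 3 libraries against 3), with 95% intervals. All points are grey, as none passed an adjusted p of 0.05; the interval of Ahnak in primordial oocytes, 1.11 to 3.88, clears 0 before adjustment, and the nucleators have intervals of several log2 units in the first and second panels.

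Primary and primordial oocytes were compared within each treatment. In these fits, which share libraries with those of NTY against sham, 0 of 10 genes passed the test in the sham libraries (0.0095% of all genes) and 0 of 10 in the NTY libraries (0% of all genes), and DESeq2 and limma called 0 of 10 in each. DESeq2 called 5% and 6.71% of all genes there, and limma 0.0428% and 0%. At an unadjusted p under 0.05 there were 0 of 10 in sham (9.28% of all genes) and 2 of 10 in NTY (9.97%). These were Ahnak, at -1.79 ± 0.67 (adjusted p = 0.44, edgeR), and Actg1, at 1.70 ± 0.83 (adjusted p = 0.50). Without primordial NTY replicate 3 the value of Ahnak was -0.20, and without primary NTY replicate 2 that of Actg1 was 0.57. In CPM scaled by TMM factors 0 of the 10 separated the 2 follicle stages without overlap, where 14.2% of all genes did so in sham and 7.84% in NTY. In plain CPM 0 of 10 did so in sham (15.6% of all genes) and 1 of 10 in NTY (7.12%), which was Pfn1, at 430, 674 and 710 TPM in primordial and 931, 1590 and 1675 TPM in primary NTY libraries.

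The ratio of Actb to Actg1 within a library does not depend on scaling between libraries. Between MII and microdissected libraries, stage and library method still cannot be told apart for it. The ratio was 18.1, 4.24 and 7.73 in the primordial sham and 7.72, 3.17 and 42.3 in the primordial NTY libraries. In the primary follicles it was 6.26, 4.28 and 6.48 in sham and 7.48, 1.21 and 7.16 in NTY. The extremes were thus primordial NTY replicate 3, with the most Actb, and primary NTY replicate 2, with the most Actg1. In MII oocytes the ratio was 4.001, 1.60 and 2.15 in sham and 4.19, 3.54 and 2.11 in NTY. Actb exceeded Actg1 in all 18 libraries. The mean log2 ratio, with 1 TPM added to each gene, was 1.35 ± 0.52 (SD, n = 6) in MII and 2.72 ± 1.26 (n = 12) in microdissected libraries, a difference of -1.37 (exact two-sided permutation p = 0.0197, adjusted over 6 ratio tests p = 0.12). Without primary NTY replicate 2 the difference was -1.60 (exact permutation, adjusted p = 0.0092), so that this library decided the call. Between NTY and sham within stages the ratio differed by 0.05 (exact permutation p = 0.92, adjusted p = 0.96), and between primary and primordial follicles by -0.96 (exact permutation p = 0.22, adjusted p = 0.44).

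**Figure D4:**
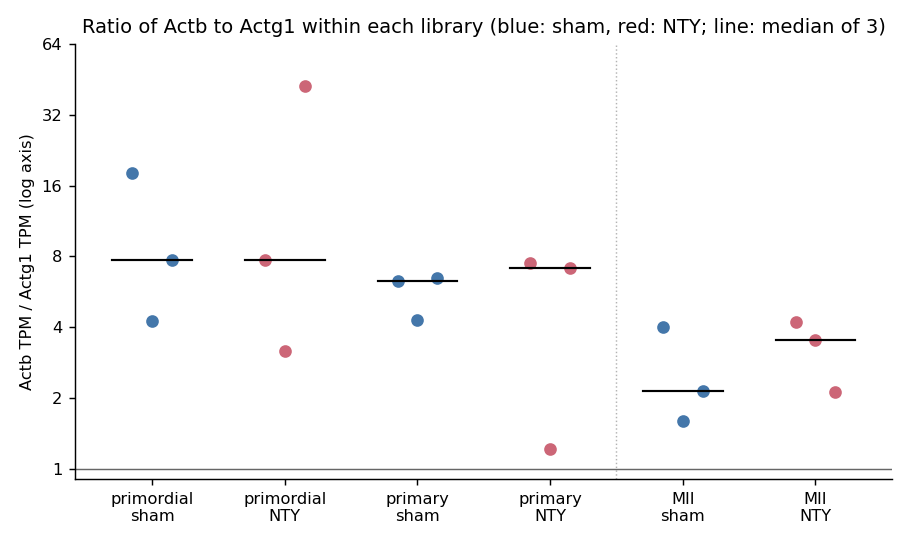
Ratio of Actb to Actg1 in TPM (log axis) in each library, by group; points are single libraries and lines the median of 3. All points lie above 1, between 1.60 and 4.19 in MII and between 1.21 and 42.3 in microdissected libraries.

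Tmsb10 and Tmsb4x did not keep a fixed ratio. Over the microdissected libraries Tmsb10 stood between 0.000397 and 6.62 times Tmsb4x, with a median of 1.04. The log2 ratio differed by -0.40 between NTY and sham (exact permutation p = 0.85, adjusted p = 0.96), by -0.21 between primary and primordial follicles (exact permutation p = 0.96, adjusted p = 0.96) and by 2.30 between MII and microdissected libraries (exact permutation p = 0.15, adjusted p = 0.44). All 3 differences changed sign when only libraries with at least 10 counts of both genes were used, to 0.68, 1.53 and -0.39.

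The other genes of actin turnover were described from a list of 124, of which 123 were matched in the counts. In NTY against sham and in primary against primordial follicles 0 genes of the list passed the edgeR test, and 2 to 8 of the 83 to 95 tested were under an unadjusted p of 0.05, where 2.29% to 11.8% of all genes were. DESeq2 called 0 to 4 of them in these comparisons, where it called 0.238% to 7.22% of all genes, and limma called 0, with 0% to 0.0428% of all genes. Between MII and microdissected libraries 103 were tested, and 42 were lower and 12 higher, 40.8% and 11.7% of them beside 17.2% and 42.3% of all genes. With RLE size factors 27 were lower and 20 higher, beside 1944 lower and 8090 higher of 15929 genes, so the split moves with the scaling. The median log2 fold change of the list was -2.18 against 1.64 for all genes tested, and with RLE size factors it was -0.86 against 3.09.

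The list's groups were uneven. Of 20 genes of the Arp2/3 complex, which branches filaments, and its activators, 9 were lower and 0 higher, and with RLE size factors 3 were lower and 2 higher. Of 13 myosins and vesicle motors 8 were lower and 0 higher, and 5 were lower with RLE size factors or plain totals and 4 with DESeq2. The shares of all genes called lower with plain totals and with DESeq2 are not given here. Among the 8 were Myh9 and Myh10, the heavy chains of non-muscle myosin II, at -8.29 ± 0.75 and -7.59 ± 0.95 (edgeR adjusted p under 0.05 for each gene named here as changed). Myh9 went from a median of 301 TPM to 1.31. Of 16 cross-linking and cortex genes 9 were lower and 2 higher, and with RLE size factors 7 were lower and 3 higher. Flna, which cross-links filaments, went from a median of 108 TPM to 0.0326, and Tpm1, a tropomyosin, from 714 to 1.82.

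Of 11 capping and severing genes 5 were higher and 1 lower, and their median of 1.60 lay near the 1.64 of all genes, of which 42.3% were higher. Scin, a severing protein of the gelsolin family, rose from a median of 0 TPM, with a highest value of 3.40, to 24.2 TPM in MII oocytes. Tmod3, which caps pointed ends, rose from a median of 0.132 to 19.8 TPM, and its paralogue Tmod1 had no count in any microdissected library and a median of 1.27 TPM in MII oocytes. Capzb, a subunit of the barbed-end capping protein, was the lower gene, from 294 to 9.05 TPM. Of 18 monomer-binding and disassembly genes 3 were higher and 3 lower, and with RLE size factors 7 and 3, with a list median that turned from -0.91 to 0.16. Pfn4, a testis-type profilin, had at most 0.236 TPM in microdissected libraries and 1.204 to 7.58 TPM in MII oocytes, while Cap1, which recharges monomers, fell from a median of 117 to 5.82 TPM. Of 15 other nucleators and elongators 6 were lower and 2 higher, and with RLE size factors 3 and 2. The higher ones, Fmn1, a formin, and Cobl, which joins monomers into nuclei, rose by 4.29 ± 1.52 and 4.25 ± 1.51 on the log2 scale, close to the values of Spire1 and Fmn2, and Fmnl2, another formin, fell to -5.13 ± 0.94. Ahnak's partner Anxa2 fell by 4.23 on the log2 scale, 1 of 3 partners tested. Their median, -0.13, was 1.42 with RLE size factors and 0.75 with plain totals.

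**Figure D5:**
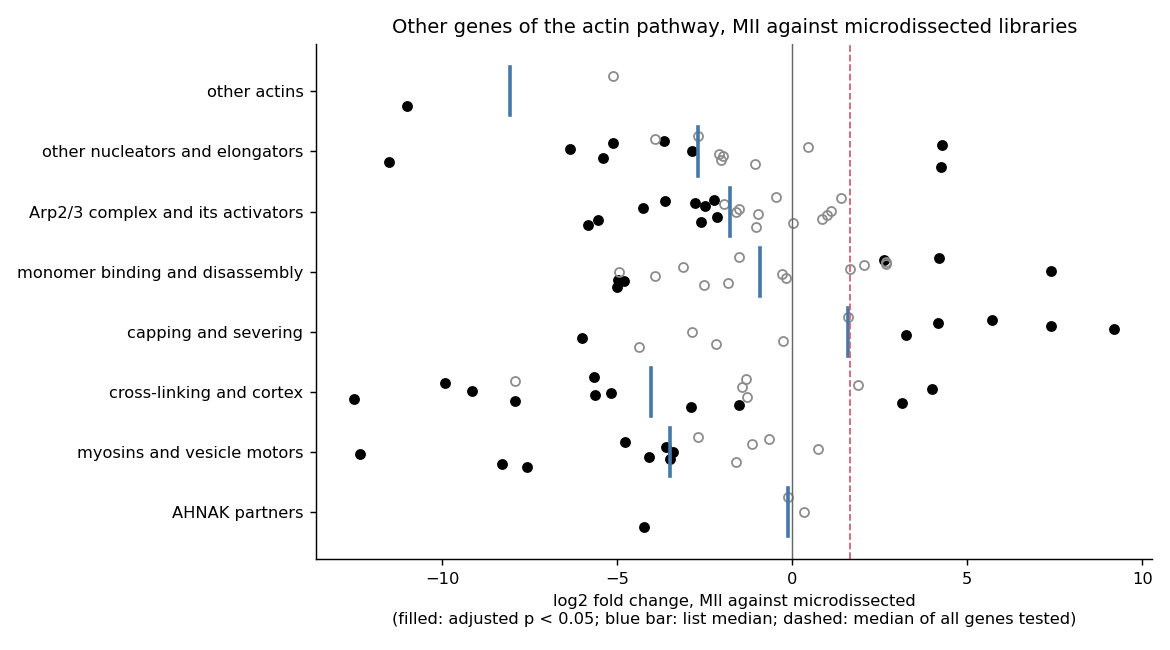
Fitted log2 fold change (x axis), MII against microdissected libraries, of the other actin pathway genes described here, by list (rows); filled points have an adjusted p under 0.05, blue bars are list medians and the dashed line is the median of all genes, 1.64. In every list shown but that of capping and severing the median lies below 0 on this scale, and in that list it is 1.60. With RLE size factors the medians of monomer binding and of AHNAK partners turn to 0.16 and 1.42.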

How the data were processed

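Counts and TPM of 10 actin genes were read from tables of 18 mouse oocyte libraries, grouped by their labels. The authors deposited raw read counts, whole numbers for each of 53715 genes, together with TPM, which sum to about 1000000 in a library, for 28252. The submitters' processing notes name Trim Galore 0.4.1, TopHat2, featureCounts and mm10. How reads that match several genes were handled, the strand setting and the gene lengths behind the TPM are not given in the sources used here, so reads of Actb and Actg1 or their pseudogenes could have been split or dropped. Depths were 8652089 to 29205503 counts. The members, lists and tests were chosen with earlier results of these data known.

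Counts were tested with the quasi-likelihood test of edgeR 4.0.16 (R 4.3.3; robust, TMM, filterByExpr by group, no replicate block), with Benjamini-Hochberg adjustment and a threshold of 0.05. A joint fit held the 12 microdissected libraries, another the 6 MII libraries and the last all 18. Ratios were log2((TPM + 1)/(TPM + 1)), with exact permutation in scipy 1.17.1. Alternatives were RLE factors, plain totals, DESeq2 1.42.0 with and without its Cook filter, limma 3.58.1 on log2(TPM + 1), 2 other filters, a replicate block, fits of the compared groups alone, primary NTY replicates 2 and 3 added together, another pseudocount and leaving out each library. Overlap of groups was read in CPM scaled by TMM factors and, chosen after seeing the data, in plain CPM. The fits were run on simulated counts with planted changes. A pass mark was set only for large changes at a spread far below that of these libraries. This checks that the code runs as meant and not what the fits can detect here. Sequences and coordinates came from GENCODE M21 on GRCm38, the build also called mm10. Named were all 10 members, up to 10 called list genes by smallest p in each direction, up to 3 of the highest mean TPM per list, and the genes most like a member. No protein sequence and no promoter was used here. The results of 1 list among these genes are not reported here, although its genes are in the counts over the whole list.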

Additional observations from a re-analysis of the deposited data

How the results depend on the processing

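The number of the 10 genes called stayed at 0 in 6 of 7 comparisons under each alternative and without any library, with 1 exception. With only the groups compared, 1 of 8 genes tested was called in primordial NTY against sham, and the share of all genes called there is not given. In MII against microdissected libraries 8 to 9 were called without any library. When at least 10 counts were asked of every library, 4 of 5 tested were called, as this setting removes the nucleators and thymosins. The main fit called 59.5% of all genes there, and the shares in these settings are not given, so these counts do not set the members apart. Same-numbered libraries did not deviate together (correlations of -0.0553 to 0.0689), and the replicate block left all 7 counts of called genes within 1.5 times. Under the block the value of Spire2 in MII against microdissected turned to -0.43, and that of Spire1 in NTY against sham MII oocytes to -0.0485. The latter was -0.0218 with plain library totals and -0.0704 with limma, and that of Fmn2 was -0.0152 with limma. The Actb to Actg1 log2 ratio ranged from -0.29 to 0.34 (NTY against sham), from -1.38 to -0.45 (primary against primordial) and from -1.60 to -1.13 (MII against microdissected) when single libraries were left out. That of Tmsb10 to Tmsb4x ranged from -1.20 to 0.76, from -1.42 to 1.53 and from 1.48 to 2.92, and with at least 10 counts of both genes it was 0.68, 1.53 and -0.39. Leaving out libraries moved Spire2 between -3.04 and 2.25 in MII against microdissected, and in NTY against sham Actb between -0.63 and 1.29 in primordial oocytes, Fmn2 between -0.22 and 0.67 and Spire1 between -0.34 and 0.23 in MII oocytes. The cause was not tested. Over all genes DESeq2 called 760, 485 and 29 genes in NTY against sham primordial, primary and MII oocytes, 526 and 706 in primary against primordial oocytes of the sham and NTY groups and 752 for the difference, where edgeR called 0 or 1. Of 944 pairs of a single-gene value and an alternative, 911 kept their direction and their side of the threshold, 23 lost the call, 9 changed sign and 1 gained the call. Many of these pairs belong to list genes picked for their smallest p in MII against microdissected libraries. Such genes tend to keep their call, so the 911 do not measure how stable an unpicked gene is. Common dispersions of 3.59 in microdissected and 0.54 in MII libraries limit what the former can show.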
